A study of Mus musculus with 12 samples.

Results

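The transcripts described are those of 9 mouse genes for phosphatases that act on phosphotyrosine signalling: Ptpn6, Ptpn11, Ptpn1, Ptpn2, Ptpn12, Ptpn22, Ptprc, Ptprj and Inpp5d. They were chosen by gene symbol from the 15555 genes of a read count table, and all 9 passed the filter on low counts that left 12671 genes tested. Bone-marrow-derived macrophages of 4 genotypes were compared, with 3 libraries each: DKO, which lacks both Cbl and Cbl-b by its label, Cbl-b-/-, Cbl-/- and wild type (WT). All cells were grown from mouse marrow to day 9 in medium with L-cell supernatant, which supplied the growth factor CSF-1, with no further treatment given in the labels, and the adherent cells were taken. No age, sex or strain of the mice was given, and the labels do not say whether libraries of a genotype came from separate animals, so p-values cover only how far these libraries spread, and that spread may be technical. The design asks how loss of either ligase, or of both, changes the macrophage transcriptome.

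Cbl and Cbl-b are ubiquitin ligases that bind tyrosine kinases once these are active, such as the CSF-1 receptor, and mark them for sorting to the lysosome. Phosphatases limit the same signals by another route, by removing phosphate from the kinases, from their substrates or from the membrane lipids they give rise to. The name of the group is looser than its members: SHP-2, encoded by Ptpn11, is best known for promoting Ras and ERK signalling, and CD45, encoded by Ptprc, can activate Src-family kinases by removing an inhibitory phosphate.

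The targeted genes checked the labels in part. Cbl averaged 37.6 ± 3.1 CPM in the libraries labelled DKO, 139 ± 3.0 in those labelled Cbl-b-/-, 51.5 ± 2.3 in Cbl-/- and 140.2 ± 3.4 in WT (SD, n = 3 each), where CPM stands for reads of a gene scaled to library size after normalization between libraries. Cblb averaged 71.7 ± 3.2, 52.8 ± 2.9, 68.5 ± 0.69 and 59.4 ± 3.5 CPM in the same order, so its transcript was not lower in the libraries labelled DKO. By edgeR's quasi-likelihood test against WT it was called higher there (log2 fold change 0.27, adjusted p = 0.00270) and in Cbl-/- (0.20, adjusted p = 0.0477). In the libraries labelled Cbl-b-/- it did not pass (-0.17, adjusted p = 0.457). Reads counted over the full gene would not reveal an allele that still makes RNA, and directions drawn from these groups rest on their labels. Total counts were 21048103 to 43946503 per library. On the third principal component of all genes, with 11.6% of the variance, the library labelled Cbl-b-/- 3 lay at -39.4 while the others lay between -6.40 and 15.4. No member lies on the chromosome of Cbl or of Cblb.

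Macrophage markers were present in all groups: the summed level of the 10 listed, among them Csf1r, Adgre1, Cd68 and Lyz2, was 17136 to 20372 CPM in the libraries labelled DKO, 20547 to 22868 in those labelled Cbl-b-/-, 17408 to 18387 in Cbl-/- and 20105 to 22164 in WT. Most of that sum was Lyz2 (14078 CPM with the DKO label, 15674 in WT). In the libraries labelled DKO 2 of the 10 were called higher than in WT and 5 lower. Higher were Fcgr1 (132 against 74.9 CPM) and Cd14 (283 against 179). Lower were Mrc1 (15.2 against 55.8), C1qa (47.4 against 147), Mertk (12.5 against 28.8), Csf1r (1709 against 2207) and Adgre1 (696 against 900). Several other marker lists were low and differed between groups in their summed level. The 5 granulocyte markers with a row, of 10 listed, summed to 64.2 to 87.0 CPM in the libraries labelled DKO, 3.05 to 4.27 in those labelled Cbl-b-/-, 4.40 to 5.79 in Cbl-/- and 2.80 to 3.97 in WT. S100a9 was at 31.0 and S100a8 at 16.4 CPM in the libraries labelled DKO, and Elane, Mpo, Camp, Retnlg and Ly6g had no row. Each gene with a row had at least 1 count in WT 1, so a missing row does not show absence in the other libraries. All 8 monocyte and progenitor markers summed to 209 to 258, 154 to 174, 168 to 182 and 126 to 142 CPM in the same order. Of the 7 tested, 5 were called higher with the DKO label than in WT and 1 lower. The lower one was Cd34 (65.4 against 77.1 CPM), and F13a1 (1.34 against 1.68) did not pass. Erythroid and megakaryocyte markers, 4 of 8 with a row, summed lower in the libraries labelled DKO, at 29.1 to 33.6 CPM, against 74.9 to 91.1 in those labelled Cbl-b-/-, 69.6 to 80.2 in Cbl-/- and 62.7 to 75.0 in WT. That sum was nearly all Pf4 (31.0 CPM with the DKO label, 66.9 in WT). Ppbp (0.256 against 0.579) and Epor (0.0081 against 0.0165) were also lower, and Itga2b was higher (0.296 against 0.0635). Stromal and endothelial markers, 6 of 8 with a row, were at 35.8 to 42.3, 27.9 to 28.7, 29.9 to 32.3 and 27.4 to 32.6 CPM, and B cell markers, 4 of 8, at 14.9 to 16.7, 9.38 to 11.4, 5.16 to 7.06 and 8.93 to 10.6 CPM, in that order. Nearly all of the B cell sum was Ighm (15.1 CPM with the DKO label, 9.08 in WT). Cd79a (0.0187 against 0.112) and Vpreb1 (0.0453 against 0.0965) were lower with that label, and Cd79b was alike (0.371 against 0.376). Dendritic cell markers, 6 of 8, and the 1 mast cell and basophil marker with a row of 6 listed summed to at most 3.76 and 1.88 CPM in any library, both in those labelled DKO. The 4 T and NK cell markers with a row, of 10 listed, stayed at or below 1.32 CPM in each library, and Cd3e, Cd3d and Cd3g had no row. In bulk RNA, a change in the number of cells of a type and a change in RNA per cell cannot be told apart.

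Per length, Ptpn6 had the highest level of the group and Ptpn22 the lowest. Ptpn6, which encodes SHP-1, a phosphatase of blood cells with SH2 domains, had 142 ± 9.7 CPM per kb of merged exon in the libraries labelled DKO and 114 ± 4.2 in WT (SD, n = 3), where it lay above 97.3% of the genes tested. Inpp5d, which encodes SHIP-1, the inositol 5-phosphatase that removes the lipid product of PI3-kinase, followed with 45.1 ± 2.9 and 56.2 ± 5.6 CPM per kb. In WT the order went on with Ptprj (35.5), Ptpn12 (29.3), Ptpn1 (25.7), Ptprc (22.7), Ptpn11 (15.7), Ptpn2 (9.04) and Ptpn22 (6.10 CPM per kb). No neighbours in that order overlapped in their 3 WT libraries. The lower part of the order depends on the length used. Divided by the longest protein-coding transcript in place of all merged exons, an alternative chosen after seeing the data, Ptprc followed Inpp5d at 81.8 CPM per kb, Ptpn1 passed Ptpn12, and Ptpn22 (15.1) passed Ptpn2 (10.6). Ptpn6 and Inpp5d held the top places by both lengths, and Ptpn6, Inpp5d, Ptprj and Ptpn12 led in this order in each genotype by merged exons.

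**Figure D1:**
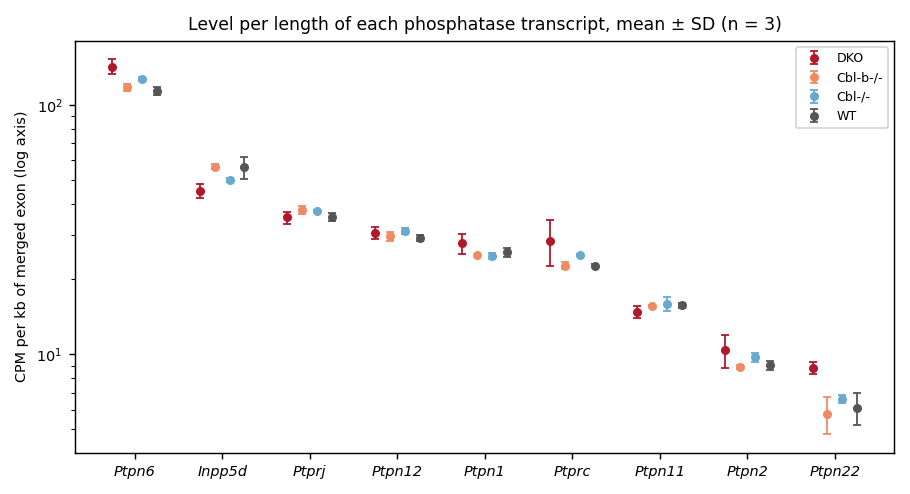
Mean level of each phosphatase transcript in CPM per kb of merged exon (log axis) with SD over 3 libraries, for DKO, Cbl-b-/-, Cbl-/- and WT. Ptpn6 lies above all other members in each genotype, at 114 CPM per kb in WT, and Ptpn22 lies lowest, at 6.10.

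Promoter windows from RefSeq (GRCm38.p6) were found for 7 of the 9 genes. Ptpn2 and Ptpn12 had none. The 250 bases before the start site are shown for the 4 genes that differed between the libraries labelled DKO and WT, and for Ptpn11 as a broadly expressed relative of Ptpn6 that did not pass there. Where RefSeq gave more than 1 start, the one furthest upstream was taken. Each runs 5′ to 3′ toward the start, with matches to the motifs searched in capitals.
Ptpn6 (chr6:124738710-124738959, minus strand): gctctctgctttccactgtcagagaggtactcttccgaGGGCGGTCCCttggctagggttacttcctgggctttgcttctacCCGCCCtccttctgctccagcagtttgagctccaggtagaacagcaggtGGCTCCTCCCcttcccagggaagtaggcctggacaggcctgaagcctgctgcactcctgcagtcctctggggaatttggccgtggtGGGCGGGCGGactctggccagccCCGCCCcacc
Ptpn22 (chr3:103859545-103859794, plus strand): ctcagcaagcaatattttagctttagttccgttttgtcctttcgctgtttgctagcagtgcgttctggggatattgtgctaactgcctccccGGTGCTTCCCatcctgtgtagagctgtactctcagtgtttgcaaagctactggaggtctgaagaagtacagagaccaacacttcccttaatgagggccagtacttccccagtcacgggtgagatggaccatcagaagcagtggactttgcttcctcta
Ptprc (chr1:138175306-138175555, minus strand): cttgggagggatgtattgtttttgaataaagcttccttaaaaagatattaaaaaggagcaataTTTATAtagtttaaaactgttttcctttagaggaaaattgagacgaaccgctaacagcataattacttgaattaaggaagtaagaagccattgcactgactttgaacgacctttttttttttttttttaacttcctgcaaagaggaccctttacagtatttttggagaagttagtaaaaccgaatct
Inpp5d (chr1:87620062-87620311, plus strand): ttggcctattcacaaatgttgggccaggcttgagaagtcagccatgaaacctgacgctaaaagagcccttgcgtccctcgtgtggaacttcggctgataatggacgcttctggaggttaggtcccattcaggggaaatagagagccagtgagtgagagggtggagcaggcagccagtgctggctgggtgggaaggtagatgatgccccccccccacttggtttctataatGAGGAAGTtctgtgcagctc
Ptpn11 (chr5:121191398-121191647, minus strand): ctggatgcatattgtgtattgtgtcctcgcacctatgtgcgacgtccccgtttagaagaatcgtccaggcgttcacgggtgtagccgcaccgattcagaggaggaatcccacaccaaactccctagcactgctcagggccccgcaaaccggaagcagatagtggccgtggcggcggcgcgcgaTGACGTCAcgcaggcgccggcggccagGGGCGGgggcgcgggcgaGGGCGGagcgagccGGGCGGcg
The windows differ in base composition. The ratio of observed to expected CpG was 0.282 for Ptpn6, 0.331 for Ptpn22, 0.654 for Ptprc and 0.279 for Inpp5d, against 1.12 for Ptpn11, 1.17 for Ptpn1 and 0.894 for Ptprj, with a median of 0.373 over 32817 mouse windows of the same length. The whole Ptpn1 window, 250 bases, lies in annotated exon of the gene, and so do 52 bases of the Ptprj window. For Ptpn6 this was 5 bases, for Ptprc 1, and for Ptpn11, Ptpn22 and Inpp5d 0. The letters searched on both strands were GAGGAAGT, the core bound by the myeloid factor PU.1, which 2.44% of all windows held, GGGCGG, the GC box (32.7%), TGACGTCA, the cAMP response element (1.55%), the core of the interferon-stimulated response element, which is GAAA on either side of any 2 bases (2.97%), a form of the NF-kB site, which is GGGA and CC with any 4 bases between (17.6%), CCGGAAGT, an ETS site (2.88%), TATAAA (12.4%) and CCAAT (33.8%). The PU.1 core was matched in Inpp5d alone among the member windows, starting 20 bases before the start site. Ptpn6 held 5 GC boxes and 2 NF-kB forms, 1 of which overlaps a GC box, and Ptpn11 held 3 with a cAMP response element 67 bases before the start. Ptpn22 held 1 NF-kB form and Ptprc 1 reversed TATAAA. The interferon-stimulated core was in no member window.

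Between the libraries labelled DKO and WT, Ptpn6, Ptpn22 and Ptprc rose, Inpp5d fell, and Ptpn11, Ptpn1, Ptpn2, Ptpn12 and Ptprj did not pass the test. Every fold change was below 1.5: Ptpn22 was 1.45-fold, Ptprc 1.26-fold and Ptpn6 1.25-fold higher, and Inpp5d was at 0.802 of WT. The test was edgeR's quasi-likelihood F test over all 12 libraries with Benjamini-Hochberg adjustment over the 12671 genes and a threshold of 0.05. These 4 calls of 9 stand beside 35.4% of all genes called in this comparison, 19.1% higher and 16.3% lower, so the share is near that of the table as a whole. Libraries did not overlap for 46.5% of all genes, all above WT for 23.7% and all below for 22.8%, and for 3 and 1 of the members. The median log2 fold change of the 9 was 0.11, against -0.003 over all genes tested, and their median absolute log2 fold change was 0.20, as it was over all genes.

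**Figure D2:**
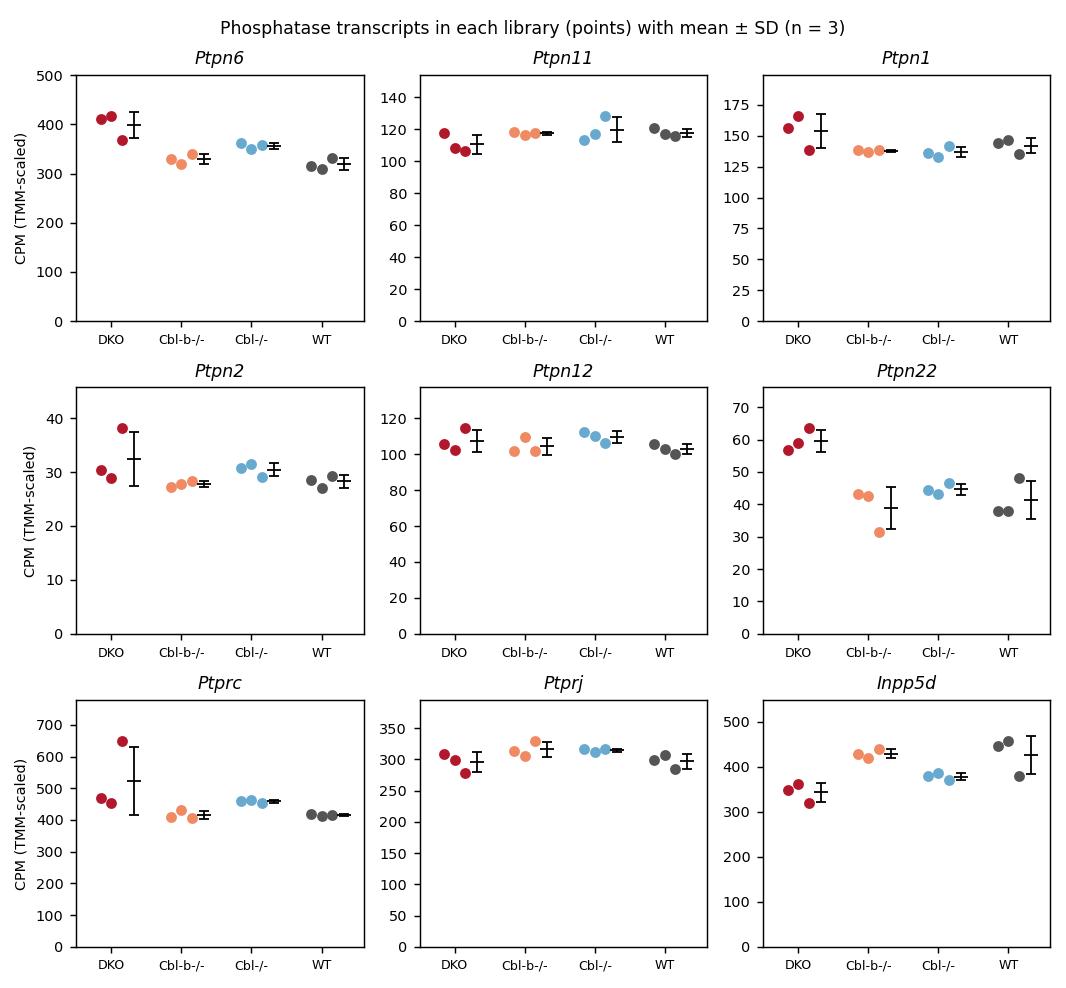
Level of each of the 9 phosphatase transcripts in CPM (axis from 0) in every library of DKO, Cbl-b-/-, Cbl-/- and WT, as points in the order of replicate number, with mean and SD (n = 3) beside them. All 3 DKO points lie above the WT points for Ptpn6, Ptpn22 and Ptprc and below them for Inpp5d, and 1 DKO library stands at 648 CPM for Ptprc.

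Ptpn6 (ENSMUSG00000004266, chromosome 6, 124720707 to 124738714, GRCm38) had 411, 418 and 368 CPM in the libraries labelled DKO, against 316, 309 and 332 in WT. The groups did not overlap. The increase was 0.32 on the log2 scale (SE 0.06, adjusted p = 0.000297). SHP-1 is the phosphatase whose loss causes the motheaten mouse, with inflammation driven by myeloid cells. An antisense gene, Gm20531, shares 195 bases of Ptpn6 exon, 6.96% of its length, and no source used here gives the strand setting of the count, so reads of both genes cannot be told apart there.

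Ptpn22 (ENSMUSG00000027843, chromosome 3, 103859795 to 103912247), which encodes a PEST-domain phosphatase known for acting with the kinase Csk on Src-family kinases in lymphocytes, had the largest change of the 9. It had 56.7, 58.8 and 63.4 CPM in the libraries labelled DKO, against 38.0, 37.9 and 48.2 in WT, with no overlap. The increase on the log2 scale was 0.53 (SE 0.11, adjusted p = 0.00113), and 82.0% of the genes tested had a smaller absolute change.

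Ptprc (ENSMUSG00000026395, chromosome 1, 138062861 to 138175708) encodes CD45, the receptor phosphatase on all white blood cells. It had 469.5, 453 and 648 CPM in the libraries labelled DKO and 419, 411 and 415 in WT. All DKO libraries lay above WT, yet 1 of them, labelled DKO 3, stood far above its partners. It rose by 0.33 on the log2 scale (SE 0.10, adjusted p = 0.0137). Without the library labelled DKO 3 it was 0.15 (adjusted p = 0.00563), and with only these 2 genotypes in the fit the call was lost (0.34, adjusted p = 0.0689).

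Inpp5d (ENSMUSG00000026288, chromosome 1, 87620312 to 87720507) had 349, 361 and 319 CPM in the libraries labelled DKO, against 446, 457 and 379 in WT. Alone among the members it was called lower, at -0.32 on the log2 scale (SE 0.07, adjusted p = 0.00152). The WT library with the lowest value, WT 3, still lay above the highest DKO library. Granulocyte and monocyte marker sums were higher in the libraries labelled DKO than in WT (64.2 to 87.0 against 2.80 to 3.97 CPM, and 209 to 258 against 126 to 142 CPM), and their part in these 4 changes was not tested.

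Of the members that did not pass, Ptpn2 came closest. It encodes TC-PTP, a phosphatase of JAK kinases and STAT factors, at chromosome 18, 67665511 to 67724595. Its level was 30.3, 28.9 and 38.1 CPM in the libraries labelled DKO, against 28.6, 27.0 and 29.3 in WT. The groups overlapped, and the high value belonged to the library labelled DKO 3. The log2 fold change was 0.20 (95% confidence interval 0.01 to 0.39, adjusted p = 0.0883), and 0.07 without that library. Without the library labelled DKO 2 it passed (0.28, adjusted p = 0.0225).

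Ptpn1 (chromosome 2, 167932057 to 167979385) encodes PTP1B, which is anchored to the endoplasmic reticulum and acts on the insulin receptor and JAK2. It had 156, 166 and 139 CPM in the libraries labelled DKO and 144, 147 and 136 in WT. Its log2 fold change was 0.11 (95% confidence interval -0.02 to 0.25, adjusted p = 0.182), and 0.18 without the library labelled DKO 3, where it passed (adjusted p = 0.00380). For this gene the library labelled DKO 3 was the lowest of its group.

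Ptpn11 (chromosome 5, 121130533 to 121191397) had 117, 108 and 106 CPM in the libraries labelled DKO and 121, 117 and 116 in WT, with a log2 fold change of -0.09 (95% confidence interval -0.21 to 0.03, adjusted p = 0.237). Ptpn12 (chromosome 5, 20986645 to 21055911) encodes PTP-PEST, which acts on adhesion and cytoskeletal proteins, and had 0.06 (-0.06 to 0.18, adjusted p = 0.415). Ptprj (chromosome 2, 90429754 to 90580647) encodes the receptor phosphatase CD148, which like CD45 can act on Src-family kinases, and had -0.01 (-0.12 to 0.11, adjusted p = 0.930). For these 3 genes the DKO and WT libraries overlapped, and the intervals cover changes of at most 0.21 on the log2 scale in either direction.

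**Figure D3:**
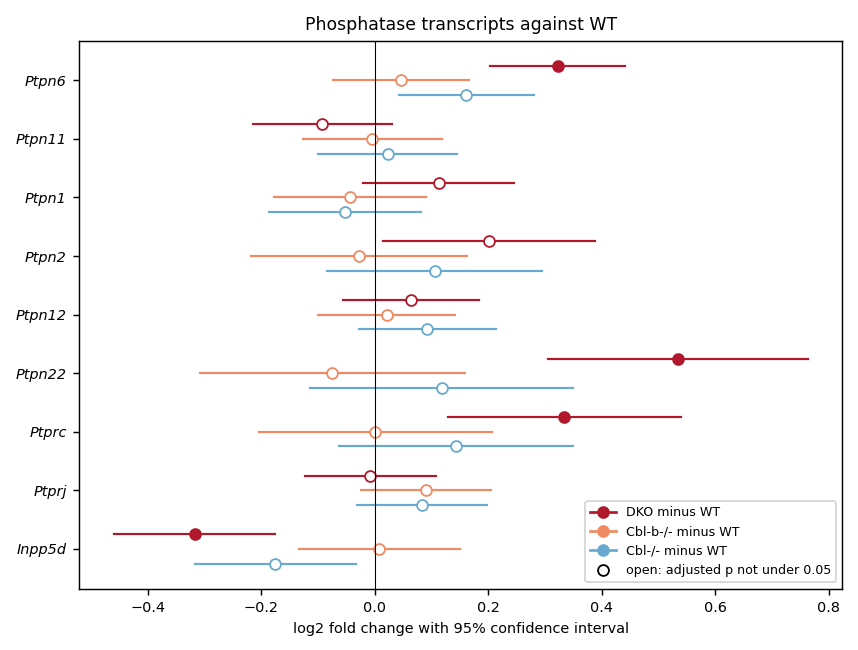
Log2 fold change of each phosphatase transcript against WT with its 95% confidence interval, for DKO, Cbl-b-/- and Cbl-/- from top to bottom within each gene. Filled points passed an adjusted p of 0.05, which only Ptpn6, Ptpn22, Ptprc and Inpp5d did, all in DKO minus WT.

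In the libraries labelled Cbl-b-/-, no member passed against WT. The log2 fold changes ran from -0.07 for Ptpn22 to 0.09 for Ptprj. With edgeR 0 of 9 had an unadjusted p below 0.05, where 7.56% of all genes did. DESeq2 and limma voom found 0 of 9 at an adjusted one. In this comparison 0.489% of all genes were called, 0.395% higher and 0.0947% lower, so the absence of calls among 9 genes is near the table as a whole. For Inpp5d the values were 429, 419 and 440.5 CPM against 446, 457 and 379 in WT, and for Ptpn6 329, 319.6 and 339 against 316, 309 and 332. All 9 members overlapped WT, where 15.1% of all genes did not, 7.84% lying above and 7.27% below. Ptpn22 had 43.0, 42.4 and 31.4 CPM against 38.0, 37.9 and 48.2 in WT, with the lowest value in the library that stood apart on the third component.

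In Cbl-/- macrophages, likewise, no member passed against WT at the threshold, where 9.87% of all genes did, 5.68% higher and 4.19% lower. Ptpn6 and Inpp5d had an unadjusted p below 0.05 in edgeR's test, as 21.8% of all genes did. Ptpn6 had 362, 349 and 358 CPM in Cbl-/-, against 316, 309 and 332 in WT, with no overlap and a log2 fold change of 0.16 (95% confidence interval 0.04 to 0.28, adjusted p = 0.0875). DESeq2 called it (0.16, adjusted p = 0.0370), limma voom called no member, and a fit of Cbl-/- and WT alone called Ptpn6 (adjusted p = 0.00528) and Ptprc (adjusted p = 0.00514). Over all genes DESeq2 called 1543 and the fit of these genotypes alone 2746, against 1251 in the main fit. Ptprc had 459, 462 and 454 CPM in Cbl-/- and 419, 411 and 415 in WT, a log2 fold change of 0.14 (-0.06 to 0.35, adjusted p = 0.445) with the spread of all 12 libraries.

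Inpp5d had 379, 385 and 371 CPM in Cbl-/-, against 446, 457 and 379 in WT. The groups met at the library WT 3, and the log2 fold change of -0.18 (95% confidence interval -0.32 to -0.03, adjusted p = 0.123) passed without that library (-0.25, adjusted p = 0.0151). Ptpn12, Ptprj, Ptprc and Ptpn6 had all Cbl-/- libraries above WT, 4 of 9, and none had all below. Of all genes 37.6% did not overlap, 19% lying above and 18.6% below. Each comparison with WT uses the same 3 WT libraries, so values are given side by side and not correlated.

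**Figure D4:**
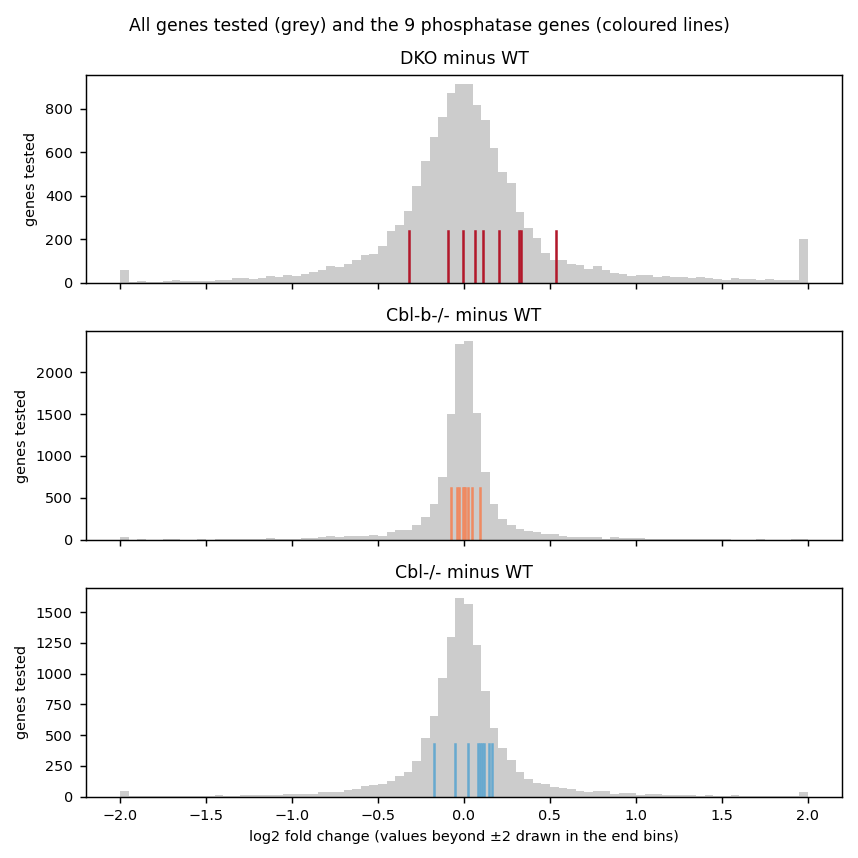
Number of genes tested (y axis) by log2 fold change against WT (x axis, values beyond ±2 in the end bins) for DKO, Cbl-b-/- and Cbl-/-, with each phosphatase gene as a coloured line. In DKO the members run from -0.32 to 0.53 within a broad distribution, and in Cbl-b-/- they lie between -0.07 and 0.09.

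Against the libraries labelled Cbl-b-/-, those labelled DKO differed in 4 members. Ptpn22 rose by 0.61 (SE 0.11, adjusted p = 0.000433), Ptprc by 0.33 (SE 0.10, adjusted p = 0.0146) and Ptpn6 by 0.28 (SE 0.06, adjusted p = 0.00119), and Inpp5d fell by 0.33 (SE 0.07, adjusted p = 0.00133). Of all genes 33.2% were called in this comparison, 17.7% higher and 15.6% lower. These 4 members and Ptpn2 did not overlap, 4 above and 1 below, as 40.5% of all genes did not, 20.9% above and 19.6% below. The call of Ptprc was lost without the library labelled Cbl-b-/- 3 (0.32, adjusted p = 0.0522) and with only these 2 genotypes in the fit (0.34, adjusted p = 0.0649). Ptpn2 (0.23, adjusted p = 0.0590) and Ptpn1 (0.16, adjusted p = 0.0678) did not pass with all libraries. Ptpn2 passed without the library labelled DKO 1 (0.28, adjusted p = 0.0438) or DKO 2 (0.30, adjusted p = 0.0148), and Ptpn1 without DKO 3 (0.23, adjusted p = 0.000702). With total counts Ptpn11 (-0.18) and Ptprj (-0.19) were called lower.

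Against Cbl-/-, 2 members passed in the libraries labelled DKO, where 29.6% of all genes did, 16% higher and 13.6% lower. Ptpn22 had 56.7, 58.8 and 63.4 CPM against 44.3, 43.3 and 46.5 in Cbl-/-, and rose by 0.42 (SE 0.11, adjusted p = 0.00808). Its call was lost without the library labelled DKO 3 (0.37, adjusted p = 0.0560). Ptpn6 had 411, 418 and 368 CPM against 362, 349 and 358, and rose by 0.16 (SE 0.06, adjusted p = 0.0395). This call is fragile: it was lost when libraries were scaled by total counts (0.07, adjusted p = 0.388), with genes of low count kept in (adjusted p = 0.0639), with only these genotypes in the fit (adjusted p = 0.105), and without any 1 of the libraries Cbl-/- 1, 2 or 3 or those labelled DKO 1 or 2 (log2 fold changes 0.17, 0.15, 0.16, 0.14 and 0.13). Inpp5d stood at -0.14 (SE 0.07, adjusted p = 0.127), with all 3 DKO libraries below all 3 of Cbl-/-, as for Ptprj. Groups did not overlap for 42.7% of all genes, 22.5% above and 20.2% below, and for 2 members each way. Scaled by total counts, which put the median of all genes at -0.08, Inpp5d (-0.23), Ptpn11 (-0.20) and Ptprj (-0.18) were called lower. Ptpn1, at 0.17 (adjusted p = 0.0586), passed with DESeq2 (0.17, adjusted p = 0.0444) and without the library labelled DKO 3 (0.24, adjusted p = 0.000453). Ptprc, at 0.19 (adjusted p = 0.155), passed without DKO 2 (0.29, adjusted p = 0.0277).

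Between the single knockouts, no member passed in the libraries labelled Cbl-b-/- against Cbl-/-. Inpp5d was at 0.18 (95% confidence interval 0.04 to 0.33, adjusted p = 0.116), with 429, 419 and 440.5 CPM against 379, 385 and 371 and no overlap. It was the 1 member with an unadjusted p below 0.05 in edgeR's test, as 20.8% of all genes had. Ptpn6, Ptpn2, Ptpn22 and Ptprc had all 3 libraries labelled Cbl-b-/- below all 3 of Cbl-/-, with log2 fold changes of -0.11, -0.13, -0.19 and -0.14. DESeq2 and limma voom called 0 members, and a fit of these genotypes alone called Inpp5d and Ptprc (adjusted p = 0.00246 and 0.0195). That fit called 1721 genes in all, against 934 in the main fit. Of all genes 7.37% were called, 3.25% higher and 4.12% lower, and 31.5% did not overlap, 15.4% above and 16.1% below.

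A further contrast, the DKO effect less the effects seen with either single label, measured non-additivity on the log2 scale. Ptpn22 alone passed, with 0.49 (SE 0.15, adjusted p = 0.0399), where 15.7% of all genes were called, 8.39% higher and 7.28% lower. Its single effects were 0.12 in Cbl-/- and -0.07 in the libraries labelled Cbl-b-/-, and neither passed. The call was lost with total counts (0.38, adjusted p = 0.0788) and without any 1 of Cbl-/- 1, 2 or 3, WT 3 or the libraries labelled Cbl-b-/- 3, DKO 2 or DKO 3 (0.49, 0.47, 0.52, 0.37, 0.36, 0.50 and 0.44). Ptprj (-0.18, adjusted p = 0.130) and Ptpn1 (0.21, adjusted p = 0.132) had unadjusted p-values below 0.05, as 28.2% of all genes did, and did not pass. Ptprj passed under total count scaling (-0.29, adjusted p = 0.0246), and Ptpn1 (0.28, adjusted p = 0.00256) and Ptpn6 (0.17, adjusted p = 0.0350) passed without the library labelled DKO 3.

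The receptors that bring SHP-1, SHP-2 or SHIP-1 to the membrane through inhibitory tyrosine motifs were mostly higher with the DKO label. Of 20 listed, 19 were tested: 12 rose, 2 fell and 5 missed the threshold with the DKO label against WT, with a median log2 fold change of 0.33 against -0.003 over all genes, of which 19.1% were called higher and 16.3% lower. Some of the 12 that rose were near the floor, with a mean of 1.34 CPM or less with the DKO label. Pilra rose to 26.4 ± 1.6 CPM in the libraries labelled DKO, against 12.8 ± 1.6 in WT (SD, n = 3; 1.04, SE 0.10, adjusted p = 4.8e-07). The C-type lectin gene Clec12a rose to 434 ± 78 CPM, against 246 ± 30 (0.82, SE 0.11), and Ceacam1 to 51.2 ± 2.3, against 30.8 ± 3.1 (0.73, SE 0.10), while the Siglec gene Cd33 fell to 58.5 ± 3.8, against 94.9 ± 17 (-0.70, SE 0.10). Ceacam1 belongs to a family of close copies and is uncertain. In Cbl-/-, where 9.87% of all genes were called, 3 of 19 rose and 0 fell, with the smallest adjusted p for Pilra (0.65) and the inhibitory Fc receptor gene Fcgr2b (0.44, adjusted p = 0.0199), a count that was 1 without Cbl-/- 1, Cbl-/- 2 or WT 3 and 7 with only these genotypes in the fit. The fit of Cbl-/- and WT alone called 2746 genes in all. In the libraries labelled Cbl-b-/- 1 rose, Fcgr2b (0.63, adjusted p = 0.0146), a call lost without Cbl-b-/- 2 or 3 or WT 1 or 3. There 0.395% of all genes were called higher. Several of these receptors are also carried by granulocytes and monocytes, whose marker sums were higher in the libraries labelled DKO, and their part was not tested.

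Among the other protein tyrosine phosphatases, 17 of 31 were tested, with 4 higher, 3 lower and 10 not past the threshold for DKO against WT, which is near the 35.4% called of all genes. The count lower was 1 without WT 3 and with only these genotypes in the fit. Ptpro, a receptor phosphatase, rose to 89.5 ± 2.9 CPM, against 67.6 ± 4.5 in WT (0.41, SE 0.06, adjusted p = 6.4e-05). Ptprn rose to 5.93 ± 1.7, against 2.32 ± 0.49 CPM, and the small cytosolic phosphatase gene Acp1 to 66.9 ± 3.5, against 57.1 ± 1.5 CPM, and Ptpru fell to 0.248 ± 0.11, against 1.45 ± 0.19 CPM. In Cbl-/- 1 of 17 was called, beside 9.87% of all genes, 4.19% of them lower than WT. It was Ptpra, a receptor phosphatase known to act on Src, which fell to 410 ± 11 CPM, against 509 ± 32 in WT (-0.31, SE 0.06, adjusted p = 0.00195). With only these genotypes in the fit 6 were lower, where 2746 genes were called in all.

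All 22 other inositol lipid phosphatases were tested, with 5 higher, 4 lower and 13 not past the threshold for DKO against WT, and 3 higher without WT 1. This too is near the 35.4% of all genes. Inpp4b, an inositol 4-phosphatase that acts on a product of SHIP-1, fell to 18.0 ± 1.4 CPM, against 37.8 ± 3.5 in WT (-1.07, SE 0.10, adjusted p = 7.3e-07). Mtmr14 (0.32, SE 0.06), Sacm1l (0.41, SE 0.08) and the myotubularin gene Mtm1 (0.44, SE 0.10) rose. In Cbl-/- the 1 call of 22, beside 9.87% of all genes, was Mtmr14, at 0.36 (adjusted p = 0.000551). In the libraries labelled Cbl-b-/- Ptpra was at -0.22 (adjusted p = 0.153) and Mtmr14 at 0.14 (adjusted p = 0.617), and neither passed.

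Of 15 adaptors and partners 14 were tested, with 2 higher, 2 lower and 10 not past the threshold for DKO against WT, beside 19.1% higher and 16.3% lower of all genes. Without DKO 3 there were 4 higher, and the count lower was 0 without WT 2, 1 without DKO 1, DKO 3, WT 1 or WT 3, and 4 with total counts. Pstpip2, an F-BAR protein related to Pstpip1, a ligand of PTP-PEST, rose by 0.96 in the libraries labelled DKO (SE 0.07) and by 0.73 in Cbl-/- (SE 0.07), both against WT. Pstpip1 fell in Cbl-/- to 76.7 ± 2.0 CPM, against 105 ± 4.0 in WT (-0.46, adjusted p = 0.000193). The galectin gene Lgals3 rose by 0.41 in the libraries labelled DKO, and the docking protein genes Gab1 and Gab2 fell by 0.82 and 0.18. Of 26 tyrosine kinases known as targets of these phosphatases 23 were tested, with 7 higher, 8 lower and 8 not past the threshold for DKO against WT, beside the same shares of all genes, and with the Src-family genes Fgr (1.70) and Src (2.29) and the receptor gene Met (2.58) at the smallest adjusted p. In Cbl-/- 5 rose and 1 fell, beside 5.68% and 4.19% of all genes. Met (1.38) and Fgr (0.91) had the smallest adjusted p, and the 1 call lower was lost without Cbl-/- 1, 2 or 3 or WT 1 or 2. In the libraries labelled Cbl-b-/- 1 rose, Fgr (0.48, adjusted p = 0.0333), a call lost without Cbl-b-/- 1 or 2 or WT 1, 2 or 3. There 0.395% of all genes were called higher.

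**Figure D5:**
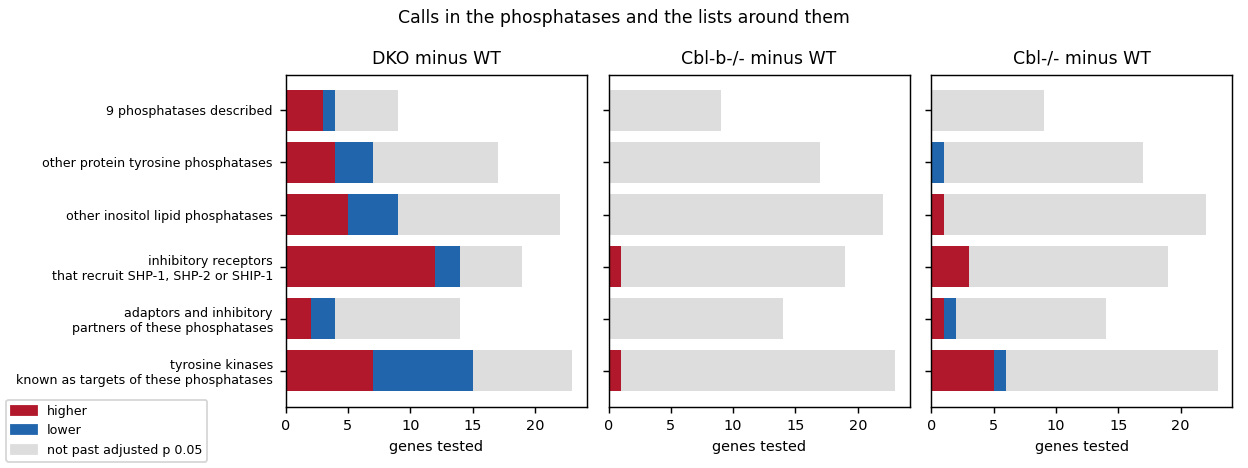
Number of genes tested that were higher, lower or not past an adjusted p of 0.05 against WT (bars stacked from 0) for the 9 phosphatases and 5 lists around them, in DKO, Cbl-b-/- and Cbl-/-. The inhibitory receptors hold 12 higher and 2 lower of 19 in DKO, and the 9 phosphatases 3 higher and 1 lower.

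The 3 members with the widest range between genotype means were set against all other genes by Pearson's r of log2 CPM over the 12 libraries. On the first and second principal components the libraries labelled DKO and those of Cbl-/- form clusters of their own. Those labelled Cbl-b-/- 1 and 2 lie close to WT. So r mostly describes differences between these clusters, and it carries no test. For Ptpn22 the most alike of 10106 genes were Orc1 (r = 0.953), Pigk (0.949) and Glrx (0.948). For Inpp5d they were Txnip (0.964), Rab3il1 (0.959) and Cpt1a (0.957), and for Ptpn6 Mvp (0.976), Tiam1 (0.972) and Pabpc4 (0.969).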

How the data were processed

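The authors deposited whole-number read counts per gene for 12 libraries, made from mRNA with a stranded TruSeq kit per the labels' protocols, which also speak of RNA pooled at equal concentration. The build was GRCm38.p5 per the submitters' processing notes; no aligner, counter or strand setting is named in the sources used here. Each gene had at least 1 count in WT 1, so genes silent there have no row. Symbols (15506 of 15555 genes) and exon lengths came from GENCODE M21. Counts were tested with edgeR 4.0.16 in R 4.3.3 (filterByExpr, TMM, robust quasi-likelihood, 1 mean per genotype), in 7 contrasts, with SE taken as the log2 fold change over the root of F. CPM was computed from the deposited counts with TMM factors. Levels per kb divide by the merged exons of all transcripts. The pipeline was tested on simulated data. Alternatives were DESeq2 1.42.0, limma 3.58.1 voom, other scalings and filters, a replicate block, fewer genotypes and leaving out each library. Replicates differed by more than sampling noise (chi-square per degree of freedom 3.93 to 55.3 over 12 pairs). The highest values belonged to the library labelled DKO 3, at 44.7 with DKO 1 and 55.3 with DKO 2. The next highest was 12.3, for WT 2 and 3. Each value is a sum over genes, so it does not show how many genes set DKO 3 apart. On the first and second principal components DKO 3 (46.8 and 6.02) lay near DKO 1 (41.4 and 6.20) and DKO 2 (44.2 and 7.37). All members are named. From each related list up to 4 genes called in DKO minus WT and 2 in Cbl-/- minus WT, by smallest adjusted p, are named, with the calls in Cbl-b-/- minus WT chosen after their values were seen, and 3 genes most alike are named for 3 members. The members and lists were chosen with earlier results of these data known. Genes with close copies are uncertain. A gene that this rule would name is not reported here.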

Additional observations from a re-analysis of the deposited data

Results flagged for a closer look

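In the main fit the effect of losing Cbl on Ptpn22 differed with the Cbl-b label, by the test of the difference itself. The libraries labelled DKO lay 0.49 on the log2 scale above the sum of both single effects (SE 0.15, adjusted p = 0.0399 by edgeR's quasi-likelihood test). Of all genes 15.7% were called in this contrast. All 3 libraries labelled DKO (56.7 to 63.4 CPM) lay above all of Cbl-/- (43.3 to 46.5), Cbl-b-/- (31.4 to 43.0) and WT (37.9 to 48.2). The value ranged from 0.36 to 0.52 over the 7 left-out libraries that ended the call, and was lowest without the library labelled Cbl-b-/- 3. Scaling by total counts and the replicate block also ended it, so the call is fragile.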

How the results depend on the processing

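Over the 7 comparisons, 927 values of members were recomputed under the alternatives. No called value turned its sign, 22 lost the call and 22 gained one, and 23 values that passed under neither setting turned sign, none larger than 0.12. Calls of members numbered 4 in DKO minus WT and 4 in DKO minus Cbl-b-/-, and stayed within 1.5 times under each alternative. In DKO minus Cbl-/- the 2 calls became 1 without the filter, 1 with only these genotypes, 1 with the replicate block and 4 with total counts, and 1 to 2 without single libraries. In Cbl-/- minus WT the 0 calls became 1 with DESeq2, 2 with only these genotypes and 0 to 1 without single libraries, and in Cbl-b-/- minus Cbl-/- 2 with only these genotypes. The departure from additivity, 1 call, gave 0 with the replicate block (Ptpn22 at 0.49, adjusted p = 0.0654) and 0 to 2 without single libraries. Total counts put the median of all genes in that contrast at -0.11.

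Replicate numbers did not pair the libraries: same-numbered libraries of different genotypes had deviations correlated between -0.05 and 0.05 in 18 pairs, and beside Ptpn22 the block ended only the call of Ptpn6 in DKO minus Cbl-/- (adjusted p = 0.0593). Over all genes, only the compared genotypes gave 2746 calls in Cbl-/- minus WT (1251 in the fit of all), 1721 in Cbl-b-/- minus Cbl-/- (934) and 2764 in DKO minus Cbl-b-/- (4211), and DESeq2 gave 145 in Cbl-b-/- minus WT (62). Without single libraries the calls ranged from 736 to 983 in Cbl-/- minus WT, 536 to 738 in Cbl-b-/- minus Cbl-/- and 36 to 75 in Cbl-b-/- minus WT. The biological coefficient of variation between replicates was 11.9% in the libraries labelled DKO, 7.79% in those labelled Cbl-b-/-, 4.26% in Cbl-/- and 5.37% in WT. The fit of all libraries used a spread shared by the genotypes for each gene. The cause of these shifts in calls was not tested. The lowest count of a member in a library was 616, and how far depth limits each member was not tested.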

Other observations

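A ratio of 2 genes' counts in the same library needs no scaling between libraries. Ptpn6 over Inpp5d was 1.16 ± 0.014 in the libraries labelled DKO, 0.766 ± 0.0034 in those labelled Cbl-b-/-, 0.943 ± 0.032 in Cbl-/- and 0.754 ± 0.11 in WT (SD, n = 3), and the libraries labelled DKO (1.15 to 1.18) lay above WT (0.677 to 0.877). Ptpn6 over Ptpn11 was 3.61 ± 0.23, 2.80 ± 0.066, 2.99 ± 0.21 and 2.71 ± 0.13 in the same order. These pairs were chosen after their values were seen and carry no test.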
